A study of Mus musculus with 1087 samples.

Results

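Endothelial cluster 1 (EC cluster 1) of the mouse aorta-gonad-mesonephros (AGM) region is made of 145 of the 1087 single cells sequenced in this series, chosen as the cells whose labels give class EC and cluster 1 in the authors' clustering without CD27+ cells. They were set against the 190 cells of EC cluster 2, always inside 1 day and 1 fluorescence gate. At E10, EC cluster 1 held 10 cells and EC cluster 2 held 4, and at E11 they held 7 and 8. At E11.5 they held 68 and 54 cells of the G2VInt gate, and 60 and 124 cells of the G2VLo gate. The E10 and E11 cells all came from the G2VInt gate.

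Every cell, in both clusters, came from a Gata2V/+ embryo, which carries 1 Gata2 allele that reports through the Venus fluorescent protein; the fathers were Gata2V/V and the mothers wild-type C57BL/6HsdJOla. The AGM was dissected together with the trunk stretch of the vitelline and umbilical arteries, dissociated by collagenase and sorted; the sort excluded dead cells by Hoechst and used CD31, cKit and CD27 staining, and each library is named as high for Kit. G2VInt and G2VLo stand for intermediate and low Venus. The labels do not say which embryos, litters or sorts the cells came from, nor whether embryos were pooled, and no cell in the series is free of the reporter allele. Each day and gate is therefore 1 sample and its cells are not replicates, so no test was run: a gene is called higher or lower where the summed counts differ at least 2-fold, and 95% intervals cover counting error only. Because the clusters were formed from these same genes, the contrast between them is a description.

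The AGM holds the dorsal aorta, the site where blood stem cells first bud from a specialised endothelium, and the transcription factor Gata2 is needed for that step. Arterial endothelium depends on Notch signalling through the ligand Dll4 and its target Hey1. Endothelium of veins, of the heart lining (endocardium) and of liver sinusoids carries other receptors and transcription factors, and von Willebrand factor, the clotting protein stored by endothelial cells, is unevenly present along the vascular tree.

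The EC cluster 1 cells held 295761 to 4407874 counted reads each (median 1391509), and the EC cluster 2 cells 188246 to 4491293 (median 786981). Within a gate the clusters were close in depth. At E11.5 the medians were 2196217 and 2266367 reads in G2VInt, and 620337 and 656373 in G2VLo. The median share of mitochondrial reads was 3.11% in EC cluster 1 and 3.28% in EC cluster 2 of G2VInt, and 6.62% and 7.22% in G2VLo. Of the cells whose sex could be read from Xist and Y-linked genes, males made up 49.2% of EC cluster 1 and 62.3% of EC cluster 2 in G2VInt, and 38.3% (exact 95% interval 26.1 to 51.8) and 59.7% (50.5 to 68.4) in G2VLo. The 2 gates differ in depth and carry separate ranges of library numbers, so gate and library block cannot be told apart. Levels are therefore compared only within a gate, except where levels summed over gates are named as such at the end.

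The class label was first set against endothelial genes. Pecam1, which encodes the sorted CD31 protein (chr11:106654217-106750628, GRCm38), was read in every cell of both clusters: the summed level was 994 reads per 1000000 counted reads (CPM) in EC cluster 1 and 914 CPM in EC cluster 2 of G2VInt, and 903 and 807 CPM in G2VLo. The VEGF receptor gene Kdr stood at 1137 CPM in EC cluster 1 and 846 CPM in EC cluster 2 of G2VInt, and at 762 and 602 CPM in G2VLo. Of 30 pan-endothelial genes measured in both gates, 1 was at least 2-fold higher in EC cluster 1 and 0 were lower, with median log2 ratios of 0.14 in G2VInt and 0.09 in G2VLo. Ptprc, the pan-leukocyte CD45 gene, was read in 4.41% of EC cluster 1 and 5.56% of EC cluster 2 cells of G2VInt, and in 5.00% and 4.84% of G2VLo cells, after every cell was thinned to 100000 reads. No gene of the epithelial and mesonephric list or of the macrophage list reached 10 CPM in EC cluster 1 at any day or gate. The summed level over 4 samples was 3.68 to 28.2 CPM in EC cluster 1 and 3.97 to 15.6 CPM in EC cluster 2 for the 15 macrophage genes, 1.597 to 9.70 and 0.392 to 12.9 CPM for the 14 epithelial ones, and 59.7 to 89.6 and 29.1 to 84.2 CPM for 16 mesenchymal ones.

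Of the sorted and reported proteins, Kit barely separated the clusters at E11.5: its level was 136 CPM in EC cluster 1 and 138 CPM in EC cluster 2 of G2VInt, and 142 and 133 CPM in G2VLo. This did not hold at E10, where cells were few and 14.7% of all measured genes were called higher in EC cluster 1. There the list of mast and basophil genes, which includes Kit, had 1 measured gene, called higher in EC cluster 1. Its genes summed to 307 CPM in the 10 EC cluster 1 cells and 104 CPM in the 4 EC cluster 2 cells of E10, and to 155 and 181 CPM at E11. Gata2, the reporter gene, was higher in EC cluster 1 by less than 2-fold, at 102 against 55.3 CPM in G2VInt (log2 ratio 0.88, 95% interval 0.84 to 0.92) and 58.7 against 34.7 CPM in G2VLo (0.76, 0.68 to 0.84). At E10 its order was the other way, at 66.7 CPM in the 10 EC cluster 1 cells and 92.3 CPM in the 4 EC cluster 2 cells, and at E11 Gata2 had 105 CPM in EC cluster 1 and 49.9 CPM in EC cluster 2. Cd27 was near the floor, at 6.70 and 1.54 CPM in G2VInt and 0.306 and 0.775 CPM in G2VLo, and 1 cell held 51.3% of its EC cluster 1 reads in G2VInt.

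EC cluster 1 differed from EC cluster 2 mostly by genes that were higher. In G2VInt, 408 of 9898 measured genes (4.12%) were at least 2-fold higher in EC cluster 1 and 133 (1.34%) lower, a gene being measured with at least 10 CPM in either cluster. In G2VLo the counts were 389 of 9638 (4.04%) and 142 (1.47%). Both gates gave the same call for 201 higher genes (2.13% of 9432 measured in both) and 55 lower ones (0.583%), and opposite calls for 1 gene, Prkcq (0.0106%). Over all measured genes the median log2 ratio was -0.015 in G2VInt and 0.04 in G2VLo.

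**Figure D1:**
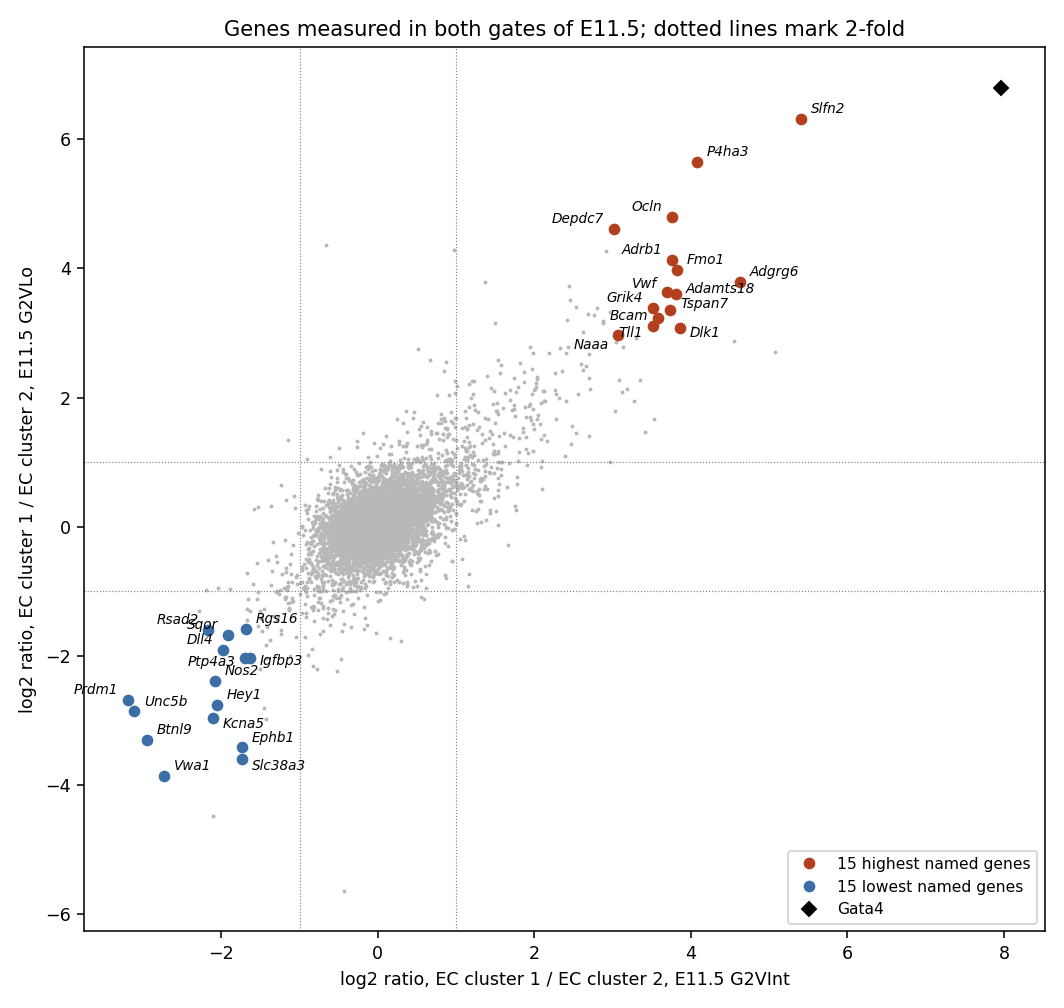
Each grey point is 1 of 9432 genes measured in both E11.5 gates, placed by its log2 ratio of EC cluster 1 to EC cluster 2 in G2VInt (x axis) and in G2VLo (y axis). The 15 highest (red) and 15 lowest (blue) named genes lie past the 2-fold lines in both gates because the rule that named them required it. Gata4 (black) reaches 7.97 and 6.80.

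Among the markers, Fmo1, Adgrg6 and Tll1 were each read in at least 53.3% of the thinned EC cluster 1 cells of either E11.5 gate. Fmo1, a flavin-containing monooxygenase of drug metabolism (chr1:162829561-162866610), had 121 CPM in EC cluster 1 and 8.54 CPM in EC cluster 2 of G2VInt, and 123 and 7.78 CPM in G2VLo. Single cells ranged up to 1129 CPM in EC cluster 1 (median 57.9) and up to 103 CPM in EC cluster 2 (median 0.327) of G2VInt, so the cells overlapped although most EC cluster 1 cells lay above most EC cluster 2 cells. After thinning, Fmo1 was read in 82.4% (71.2 to 90.5) of EC cluster 1 and 25.9% of EC cluster 2 cells in G2VInt, and in 70.0% (56.8 to 81.2) and 20.2% (13.5 to 28.3) in G2VLo.

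Adgrg6, an adhesion G protein-coupled receptor (chr10:14402583-14545659), stood at 71.9 CPM in EC cluster 1 and 2.91 CPM in EC cluster 2 of G2VInt (log2 ratio 4.63, 4.48 to 4.78), and at 44.1 and 3.20 CPM in G2VLo (3.79, 3.60 to 3.98). It was read in 70.6% and 11.1% of the thinned G2VInt cells and in 53.3% and 6.45% of the thinned G2VLo cells. Tll1, a protease of the tolloid family that cuts the BMP antagonist chordin (chr8:64014931-64206271), had 120 CPM in EC cluster 1 and 10.5 CPM in EC cluster 2 of G2VInt, and 102 and 11.7 CPM in G2VLo. Vwf, which encodes von Willebrand factor (chr6:125546774-125686679), had 468 CPM in EC cluster 1 and 36.3 CPM in EC cluster 2 of G2VInt, and 294 and 23.8 CPM in G2VLo. Vwf was the gene read in the most EC cluster 1 cells of these 4, in 92.6% of G2VInt and 83.3% of G2VLo cells after thinning, against 48.1% and 30.6% of EC cluster 2 cells.

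**Figure D2:**
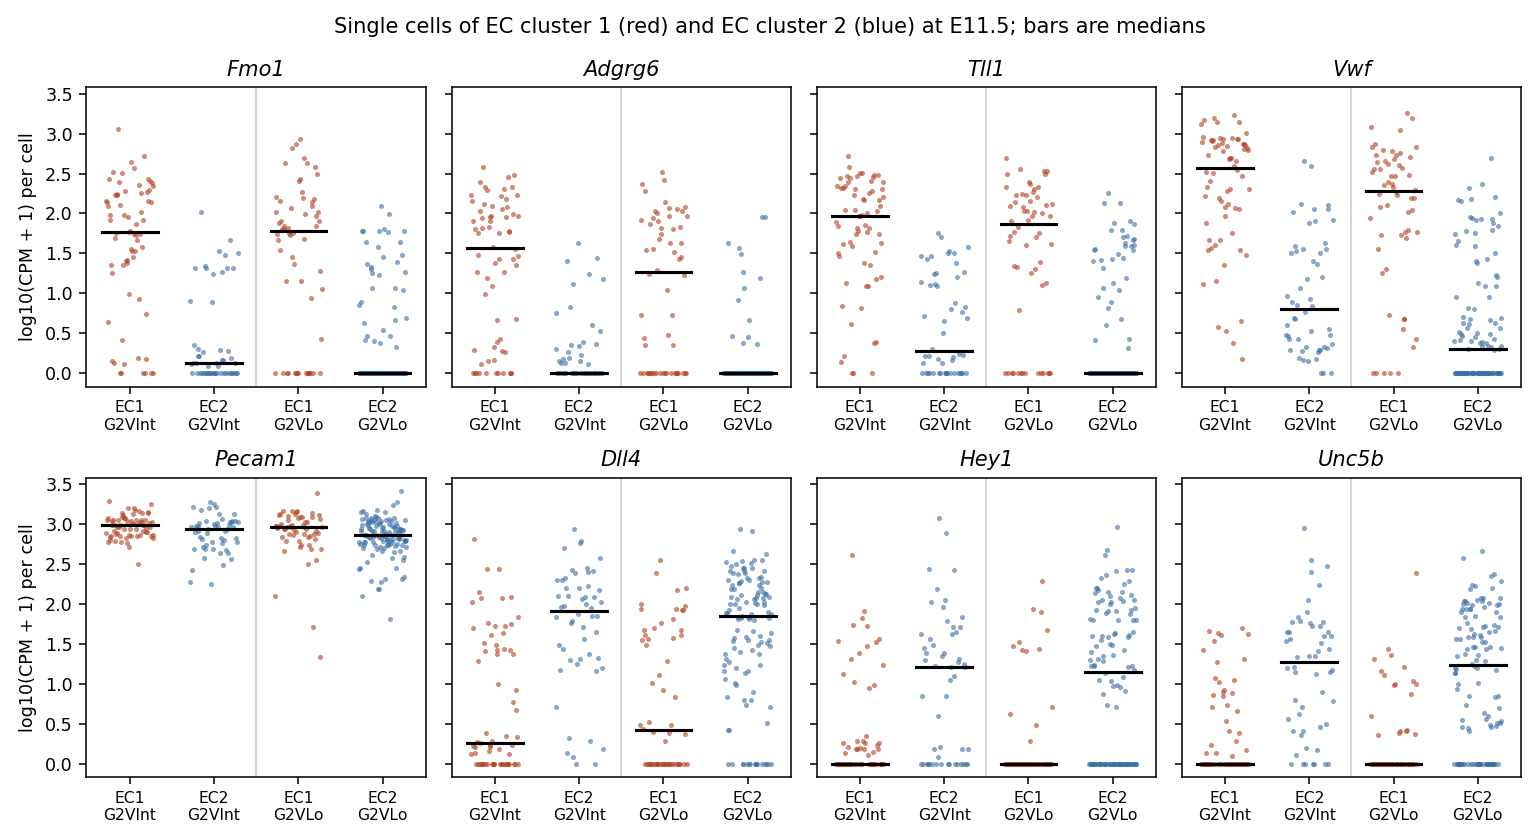
Each point is 1 cell at E11.5, with log10(CPM + 1) on the y axis, for EC cluster 1 (red) and EC cluster 2 (blue) in the G2VInt and G2VLo gates; black bars are medians. Fmo1, Adgrg6, Tll1 and Vwf are higher in EC cluster 1, Pecam1 is close in both, and Dll4, Hey1 and Unc5b have medians near 0 in EC cluster 1, although single EC cluster 1 cells reach the range of EC cluster 2.

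Reads of these genes were also counted jointly in single cells. The 5 genes were picked for their higher level in EC cluster 1, so the contrast between clusters follows from the choice. How often they would meet in 1 cell given their single shares was not computed. Fmo1, Tll1, Adgrg6, Vwf and Procr, the protein C receptor gene, were all read in 38 of 68 thinned EC cluster 1 cells of G2VInt (55.9%) and in 1 of 54 EC cluster 2 cells (1.85%). In G2VLo all 5 were read in 23 of 60 EC cluster 1 cells (38.3%) and 3 of 124 EC cluster 2 cells (2.42%). At the other end, at most 1 of the 5 was read in 1.47% of EC cluster 1 and 33.3% of EC cluster 2 cells of G2VInt, and in 10.0% and 66.9% of G2VLo cells. The gradation left 8 EC cluster 1 cells of G2VInt and 10 of G2VLo with 3 of the 5 genes, as against 10 and 9 EC cluster 2 cells. At the earlier days, with few cells of the same clustering, all 5 genes were read in 5 of 10 EC cluster 1 cells at E10 and 4 of 7 at E11. Among EC cluster 2 cells the counts were 0 of 4 and 0 of 8.

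Aplnr, the apelin receptor gene, is a marker of the cluster by level rather than by contrast, at 2682 CPM in EC cluster 1 and 2117 CPM in EC cluster 2 of G2VInt, and 1887 and 1774 CPM in G2VLo (log2 ratios 0.34 and 0.09). Slc7a9, a cystine and dibasic amino acid transporter gene, was read in 29.4% of thinned EC cluster 1 cells and in 0 of 54 EC cluster 2 cells of G2VInt, where an exact 95% interval allows up to 6.60%. In G2VLo it was read in 20% of EC cluster 1 and 0.806% of EC cluster 2 cells, and stayed below 10 CPM in both.

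The other genes with the highest ratios in both gates, by a fixed rule, cover several functions. Slfn2, a Schlafen family gene with a role in T cell quiescence, had 33.7 CPM in EC cluster 1 and 0.790 CPM in EC cluster 2 of G2VInt, and 23.2 and 0.291 CPM in G2VLo. P4ha3, a collagen prolyl hydroxylase subunit, had 30.6 and 1.82 CPM in G2VInt and 20.7 and 0.412 CPM in G2VLo, again with EC cluster 1 the higher. Ocln, the tight junction protein occludin, had 44.1 CPM in EC cluster 1 and 3.26 CPM in EC cluster 2 of G2VInt, and 29.2 and 1.05 CPM in G2VLo. Adrb1, a beta-adrenergic receptor gene, had 35.6 and 2.63 CPM in G2VInt, and 25.8 and 1.47 CPM in G2VLo. The set is completed by Adamts18, Grik4, Tspan7, Bcam, Dlk1, Depdc7 and Naaa, whose log2 ratios ran from 2.96 (Naaa in G2VLo) to 4.61 (Depdc7 in G2VLo). Dlk1, an imprinted gene of the Notch ligand family, is the least even of the set: among male cells of G2VLo alone its log2 ratio was -1.93, against 3.09 in all G2VLo cells.

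The lowest genes of EC cluster 1 included several of the arterial programme. Dll4 (chr2:119325784-119335962) had 32.4 CPM in EC cluster 1 and 128 CPM in EC cluster 2 of G2VInt, and 32.7 and 123 CPM in G2VLo. It was read in 38.2% of thinned EC cluster 1 and 83.3% of EC cluster 2 cells of G2VInt, and in 38.3% and 79.8% of G2VLo cells, so EC cluster 1 is not free of it. Hey1, a Notch target, had 14.1 CPM in EC cluster 1 and 58.3 CPM in EC cluster 2 of G2VInt, and 8.84 and 59.6 CPM in G2VLo. A single cell held 48.3% of the EC cluster 1 reads of Hey1 in G2VInt. Unc5b, a netrin receptor gene of arterial and tip cells (chr10:60762593-60831581), had 5.45 and 47.1 CPM in G2VInt and 6.32 and 45.8 CPM in G2VLo, EC cluster 1 being the lower. Here too 1 cell carried 58.5% of the EC cluster 1 reads in G2VLo.

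Beyond those 3, the lowest genes held Prdm1, a transcriptional repressor gene, at 2.05 CPM in EC cluster 1 and 18.7 CPM in EC cluster 2 of G2VInt and at 4.94 and 31.6 CPM in G2VLo. Kcna5, a voltage-gated potassium channel gene, had 6.16 and 26.5 CPM in G2VInt, and 3.11 and 24.3 CPM in G2VLo. Igfbp3, which encodes a binding protein of insulin-like growth factors, had 112 CPM in EC cluster 1 and 346 CPM in EC cluster 2 of G2VInt, and 94.3 and 384 CPM in G2VLo. The other 9 were Btnl9, Vwa1, Nos2, Ephb1, Slc38a3, Ptp4a3, Sqor, Rsad2 and Rgs16, with log2 ratios between -3.85 (Vwa1 in G2VLo) and -1.58 (Rgs16 in G2VLo).

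Promoters of these genes were searched on both strands, over 300 bases that end 50 bases past each RefSeq start (GRCm38.p6), for the GATA motif AGATAA and the motif GTGGGAA of RBPJ, the DNA-binding partner of Notch; the 2 motifs do not overlap. The GATA motif was in 1 of 14 promoters of the 15 highest genes (7.14%) and 0 of 10 of the 15 lowest, against 11.2% of all 32851 promoters. The RBPJ motif was in 0 of 14 and in 1 of 10 promoters, against 6.38% of all. Few of these promoters held either motif, and the sets are small. The 250 bases before the start of the 2 genes with a match are printed below in lower case, with the match in capitals. The sequences run 5′ to 3′ on the gene's own strand. Tll1 (chr8:64206009-64206258, minus strand) holds the reverse complement of the GATA motif, and Kcna5 (chr6:126535556-126535805, minus strand) that of the RBPJ motif.
Tll1: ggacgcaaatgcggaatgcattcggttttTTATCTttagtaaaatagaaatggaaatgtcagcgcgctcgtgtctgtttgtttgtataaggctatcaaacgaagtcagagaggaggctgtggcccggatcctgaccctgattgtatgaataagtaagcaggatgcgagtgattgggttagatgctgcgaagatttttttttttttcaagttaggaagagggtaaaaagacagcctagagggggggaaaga
Kcna5: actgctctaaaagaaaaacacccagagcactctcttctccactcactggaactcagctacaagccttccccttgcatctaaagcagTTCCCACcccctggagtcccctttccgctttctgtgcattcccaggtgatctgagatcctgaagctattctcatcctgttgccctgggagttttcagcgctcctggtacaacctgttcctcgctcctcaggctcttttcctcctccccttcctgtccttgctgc

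Gene lists are described by the members measured in both gates of E11.5 and called in both, beside 2.13% higher and 0.583% lower of all genes; the 2 medians of a list are over its members measured in G2VInt and in G2VLo. Arterial genes had more members lower than higher in EC cluster 1, and venous, endocardial and sinusoidal lists had members higher and 0 lower. Of 16 arterial genes measured in both gates, 5 were at least 2-fold lower and 1 higher in EC cluster 1, with median log2 ratios of -0.35 over 19 genes in G2VInt and -0.73 over 16 in G2VLo; Gja4, the gap junction protein connexin 37, had 28.5 CPM in EC cluster 1 and 123 CPM in EC cluster 2 of G2VInt, and 2.45 and 54.4 CPM in G2VLo. A single cell held 44.7% of the EC cluster 1 reads of Gja4 in G2VInt and 1 held 63.5% in G2VLo. In female G2VInt cells alone the log2 ratio of Gja4 was 1.09, against -2.11 in all G2VInt cells. Efnb2, the arterial ephrin, was lower by less than that, at 28.7 against 48.8 CPM in G2VInt and 22.9 against 45.9 CPM in G2VLo.

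The venous list had 3 of 9 members higher and 0 lower (medians 0.70 and 0.64): Vwf, Dab2, an endocytic adaptor gene, with 263 CPM in EC cluster 1 and 116 CPM in EC cluster 2 of G2VInt and 223 and 103 CPM in G2VLo, and Ackr1, a chemokine scavenging receptor gene, with 15.1 and 6.01 CPM in G2VInt and 18.3 and 6.78 CPM in G2VLo. The endocardial list had 5 of 10 higher and 0 lower (medians 1.15 and 1.28), among them Npr3, a natriuretic peptide clearance receptor gene, at 34.7 and 12.4 CPM in G2VInt and 25.05 and 5.86 CPM in G2VLo. The markers Gata4, Adgrg6 and Tll1 are also on that list and were known to be high. In G2VLo alone 6 of 10 endocardial genes were higher and 1 lower, beside 4.04% and 1.47% of all genes. Of 9 sinusoidal genes 3 were higher and 0 lower (medians 0.86 over 9 genes and 1.01 over 10), and of 5 lymphatic ones 0 were higher and 1 lower (-0.83 over 6 and -0.97 over 5). At E10, in few cells, 2 of 5 lymphatic genes were higher and 0 lower (median 0.29), beside 14.7% and 9.45% of all genes. At E11 0 of 5 were higher and 3 lower (median -1.17), beside 11.8% and 9.53% of all genes. The marker Gata4 is on the sinusoidal list as well. In single gates 3 of 9 sinusoidal genes were higher in G2VInt and 5 of 10 in G2VLo, beside 4.12% and 4.04% of all genes. Without the cells of clusters 9, 10 and 12 of all cells, described last, these were 2 of 9 and 3 of 9 (medians 0.60 and 0.96). The log2 ratio of Oit3, another gene of the list, was then 0.07 and -0.41, against 1.93 and 1.87 with them. The lymphatic gene called lower was Prox1, the lymphatic master regulator, with 42.3 CPM in EC cluster 1 and 113 CPM in EC cluster 2 of G2VInt, and 12.7 and 37.1 CPM in G2VLo. Flt4, which encodes VEGFR3, was lower by just under 2-fold, at 168 and 325 CPM in G2VInt and 140 and 274 CPM in G2VLo. Flt4 is on the venous list too. Of the 9 venous genes measured in both gates, 8 stood higher in EC cluster 1 in both and Flt4 lower.

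**Figure D3:**
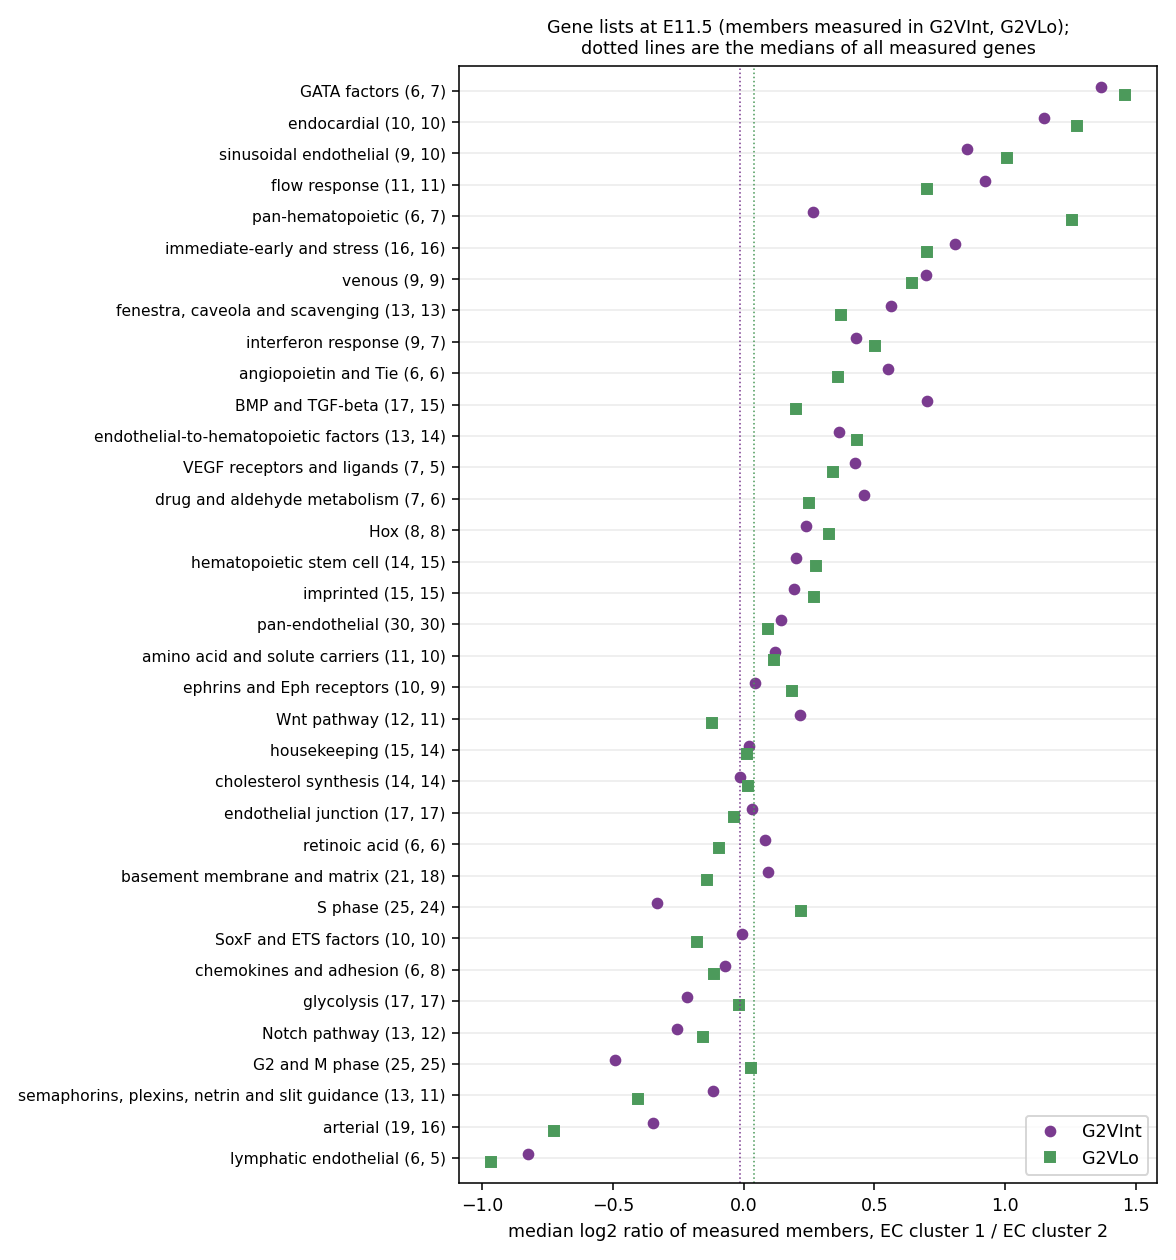
Median log2 ratio of EC cluster 1 to EC cluster 2 for each gene list with at least 5 measured members in each E11.5 gate (x axis), the markers of the cluster left out, in G2VInt (purple circles) and G2VLo (green squares); the numbers of measured members stand beside each name and dotted lines are the medians of all measured genes. Of the lists drawn, GATA factors and endocardial genes stand highest and lymphatic genes lowest in both gates; the pan-hematopoietic median in G2VLo is 1.26 over 7 genes, and 0.17 over the 4 genes still measured without 3 cells high for Gata1.

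Of 11 genes that endothelium uses to answer blood flow, 4 were higher in EC cluster 1 in both gates and 0 lower (medians 0.92 and 0.70), and the other 7 were not called in both. Edn1, the vasoconstrictor peptide endothelin 1, had 196 CPM in EC cluster 1 and 21.5 CPM in EC cluster 2 of G2VInt, and 146 and 33.4 CPM in G2VLo. Thbd, the anticoagulant receptor thrombomodulin, had 121 and 18.6 CPM in G2VInt, and 66.6 and 25.3 CPM in G2VLo. Ptgis, prostacyclin synthase, had 72.9 CPM in EC cluster 1 and 10.8 CPM in EC cluster 2 of G2VInt, and 41.9 and 4.30 CPM in G2VLo. Klf4, a transcription factor induced by shear stress, had 24.5 and 4.43 CPM in G2VInt, and 17.0 and 7.03 CPM in G2VLo.

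Close to these by function, Procr had 195 CPM in EC cluster 1 and 49.3 CPM in EC cluster 2 of G2VInt, and 137 and 21.3 CPM in G2VLo. Clec14a, an endothelial C-type lectin gene, was the pan-endothelial gene called higher in both gates, at 771 and 188 CPM in G2VInt and 729 and 149 CPM in G2VLo. Its per-cell medians were 734 CPM in EC cluster 1 and 121 CPM in EC cluster 2 of G2VInt, and 603 and 83.7 CPM in G2VLo. Of 16 immediate-early and stress genes, which can respond to dissociation, 2 were higher and 0 lower in both gates, with medians of 0.81 and 0.70. Nr4a1, an orphan nuclear receptor gene of that list, had 169 and 44.5 CPM in G2VInt and 221 and 100 CPM in G2VLo; its part in the flow-response result was not tested.

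Signalling genes split within their pathways. Of 12 Notch pathway genes, 2 were higher and 2 lower. Dll4 and Hey1 were the lower ones, and other ligand genes stood on the other side: Dll1 had 123 CPM in EC cluster 1 and 30.9 CPM in EC cluster 2 of G2VInt, and 96.7 and 22.4 CPM in G2VLo, and Jag1 had 24.0 and 6.27 CPM in G2VInt, and 18.8 and 5.75 CPM in G2VLo. Per cell, Dll1 had a median of 93.6 CPM in EC cluster 1 and 14.96 CPM in EC cluster 2 of G2VInt, the reverse of Dll4 at 0.829 and 80.7 CPM.

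Of 15 BMP and TGF-beta genes, 3 were higher and 1 lower (medians 0.70 over 17 genes in G2VInt and 0.20 over 15 in G2VLo). The ligand gene Bmp4 had 199 CPM in EC cluster 1 and 67.4 CPM in EC cluster 2 of G2VInt, and 246 and 47.5 CPM in G2VLo. Bmp2 had 31.2 and 14.8 CPM in G2VInt, and 35.2 and 14.7 CPM in G2VLo. Id2, a common BMP target, had 270 and 80.8 CPM in G2VInt, and 171 and 46.5 CPM in G2VLo. The signal transducer Smad1 was the lower member, at 41.1 CPM in EC cluster 1 and 88.8 CPM in EC cluster 2 of G2VInt, and 43.0 and 96.4 CPM in G2VLo. Among the 5 genes of the VEGF list measured in both gates, 0 were called in either direction.

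Among transcription factors, 3 of 6 GATA factors were higher in both gates and 0 lower (medians 1.36 over 6 genes in G2VInt and 1.46 over 7 in G2VLo). The list includes the marker Gata4, known to be high. In single gates 3 of 6 were higher in G2VInt and 4 of 7 in G2VLo, beside 4.12% and 4.04% of all genes. Without the cells of clusters 9, 10 and 12, the counts were 3 of 6 and 2 of 4 (medians 1.29 and 1.13). Gata6 had 27.9 CPM in EC cluster 1 and 7.73 CPM in EC cluster 2 of G2VInt, and 14.9 and 5.40 CPM in G2VLo, and Gata3 had 24.0 and 6.22 CPM in G2VInt, and 22.7 and 6.08 CPM in G2VLo. The SoxF and ETS factors that shape all endothelium were alike, with 0 of 10 called in either direction. Hox genes, which mark position along the body axis, were called in 0 of 8 cases (medians 0.24 and 0.33), as in Hoxa9 with 87.0 and 52.5 CPM in G2VInt and 77.3 and 46.1 CPM in G2VLo. Meis1, a Hox cofactor gene, was higher in EC cluster 1, at 37.8 and 17.5 CPM in G2VInt and 40.7 and 13.9 CPM in G2VLo.

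Of the 15 imprinted genes measured in both gates, which are expressed from 1 parental allele, 3 were higher in EC cluster 1, Dlk1 among them. Meg3, a noncoding RNA gene of the same imprinted domain, had 251 CPM in EC cluster 1 and 58.2 CPM in EC cluster 2 of G2VInt, and 361 and 84.5 CPM in G2VLo. Peg3, a zinc finger gene, had 719 and 164 CPM in G2VInt, and 848 and 221 CPM in G2VLo. At E10 both stood in the same order, with Meg3 at 941 and 175 CPM and Peg3 at 1525 and 464 CPM.

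Of 13 factors of the endothelial-to-hematopoietic transition measured in both gates, 2 were higher in EC cluster 1, Gata3 and Meis1, and 0 were lower (medians 0.36 over 13 genes in G2VInt and 0.43 over 14 in G2VLo). Runx1, the factor that the transition requires, stayed below 10 CPM, at 4.96 CPM in EC cluster 1 and 1.17 CPM in EC cluster 2 of G2VInt and 7.57 and 1.26 CPM in G2VLo, and was read in 16.2% and 9.26% of thinned G2VInt cells and in 10% and 8.87% of G2VLo cells. Few cells set these levels: 1 held 33.3% of the EC cluster 1 reads of Runx1 in G2VInt, and in G2VLo the 44 EC cluster 1 cells of cluster 1 of all cells had 0.652 CPM, while 2 cells of cluster 10 had 133 CPM and 1 of cluster 4 had 149 CPM. Of 14 stem cell genes 1 was higher, Procr, and 0 were lower.

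Guidance genes held single members on each side. Epha7, an Eph receptor gene, had 18.1 CPM in EC cluster 1 and 2.95 CPM in EC cluster 2 of G2VInt, and 15.7 and 1.94 CPM in G2VLo, while Ephb1 was among the lowest genes, and of 9 ephrins and Eph receptors these 2 were called. Slit3, a guidance ligand gene, had 30.5 and 5.49 CPM in G2VInt, and 11.1 and 3.74 CPM in G2VLo. It was the 1 higher member of 11 guidance genes, and Unc5b the 1 lower.

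Structural genes differed by member. Of 17 junction genes 2 were higher and 1, Gja4, lower; besides Ocln the higher one was Jam2, an adhesion molecule gene, with 44.7 CPM in EC cluster 1 and 4.65 CPM in EC cluster 2 of G2VInt, and 11.1 and 2.88 CPM in G2VLo. Cavin2, a caveola coat gene, had 144 CPM in EC cluster 1 and 16.4 CPM in EC cluster 2 of G2VInt, and 101 and 14.7 CPM in G2VLo, and 3 of 13 genes of its list (fenestra, caveola and scavenging) were higher with 0 lower. Of 18 basement membrane and matrix genes 1 was higher, the transmembrane collagen Col13a1 at 52.8 and 9.01 CPM in G2VInt and 11.3 and 2.71 CPM in G2VLo. The 3 lower ones were Nid2, Col15a1 and Lama4, with log2 ratios from -1.75 to -1.08, and Nid2, a basement membrane linker, had 81.6 CPM in EC cluster 1 and 213 CPM in EC cluster 2 of G2VInt, and 54.7 and 184 CPM in G2VLo.

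Cell cycle genes gave 0 calls in either direction in both gates. The median log2 ratio of the S phase list was -0.33 in G2VInt and 0.22 in G2VLo, and that of the G2 and M phase list -0.49 and 0.03, so the gates did not share a direction. Of 17 glycolysis genes 1 was called, Pfkp, a phosphofructokinase gene, lower in EC cluster 1 at 38.5 and 95.2 CPM in G2VInt and 49.5 and 100 CPM in G2VLo. The 14 housekeeping and 14 cholesterol synthesis genes measured in both gates gave 0 calls.

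At the earlier days the cells were few and the background of 2-fold calls wider. At E10, 14.7% of 10067 measured genes were higher and 9.45% lower in EC cluster 1, and at E11 11.8% of 10314 were higher and 9.53% lower. Of the 15 highest genes of E11.5, 13 were at least 2-fold higher at E10 and 14 at E11. The exceptions were Depdc7, with 6.15 CPM in EC cluster 1 and 12.1 CPM in EC cluster 2 at E10, and P4ha3, at 0 CPM in both at E10 and at 3.82 and 9.06 CPM at E11. Of the 15 lowest, 11 were at least 2-fold lower at E10 and 14 at E11. At E10 Slc38a3 stood the other way, at 7.83 and 1.18 CPM, and Btnl9 and Ephb1 gave no ratio.

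Tll1, Fmo1, Vwf and Dll4 kept their order with different sizes. Tll1 had 117 CPM in EC cluster 1 and 6.40 CPM in EC cluster 2 at E10, and 206 and 29.7 CPM at E11. Fmo1 had 275 and 114 CPM at E10, the closest of its 4 comparisons, and 213 and 1.56 CPM at E11. Vwf had 137 and 13.5 CPM at E10, and 444 and 77.1 CPM at E11. Dll4 had 10.4 CPM in EC cluster 1 and 102 CPM in EC cluster 2 at E10, and 0.0968 and 63.8 CPM at E11. Gata4 was at 0 CPM in the 10 EC cluster 1 cells and 0.131 CPM in the 4 EC cluster 2 cells of E10. At E11 it was read in 1 of the 7 EC cluster 1 cells, giving 10.3 CPM, and had 0 reads in EC cluster 2.

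Against the other clusters of the same gates, part of the EC cluster 1 profile was shared and part was not. Of the 15 highest genes, EC cluster 1 held the highest level among 8 clusters of at least 5 cells for 11 in G2VInt, and among 11 clusters for 7 in G2VLo. Tll1 had 1.85 CPM in cluster 7 of G2VInt and 2.86 CPM in G2VLo, and Adgrg6 1.92 and 4.71 CPM, against 120 and 102 CPM and 71.9 and 44.1 CPM in EC cluster 1. Fmo1 reached 30.6 CPM in cluster 11 of G2VInt and 47.0 CPM in the 7 cells of cluster 4 of G2VLo. Vwf was the other case: cluster 7, whose cells the labels class as HC1, had 554 CPM in G2VInt and 445 CPM in G2VLo, above EC cluster 1. Ocln, Slfn2 and Procr were likewise higher in cluster 7, with Procr at 531 and 454 CPM there, Ocln at 127 and 137 CPM and Slfn2 at 106 and 77.1 CPM.

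**Figure D4:**
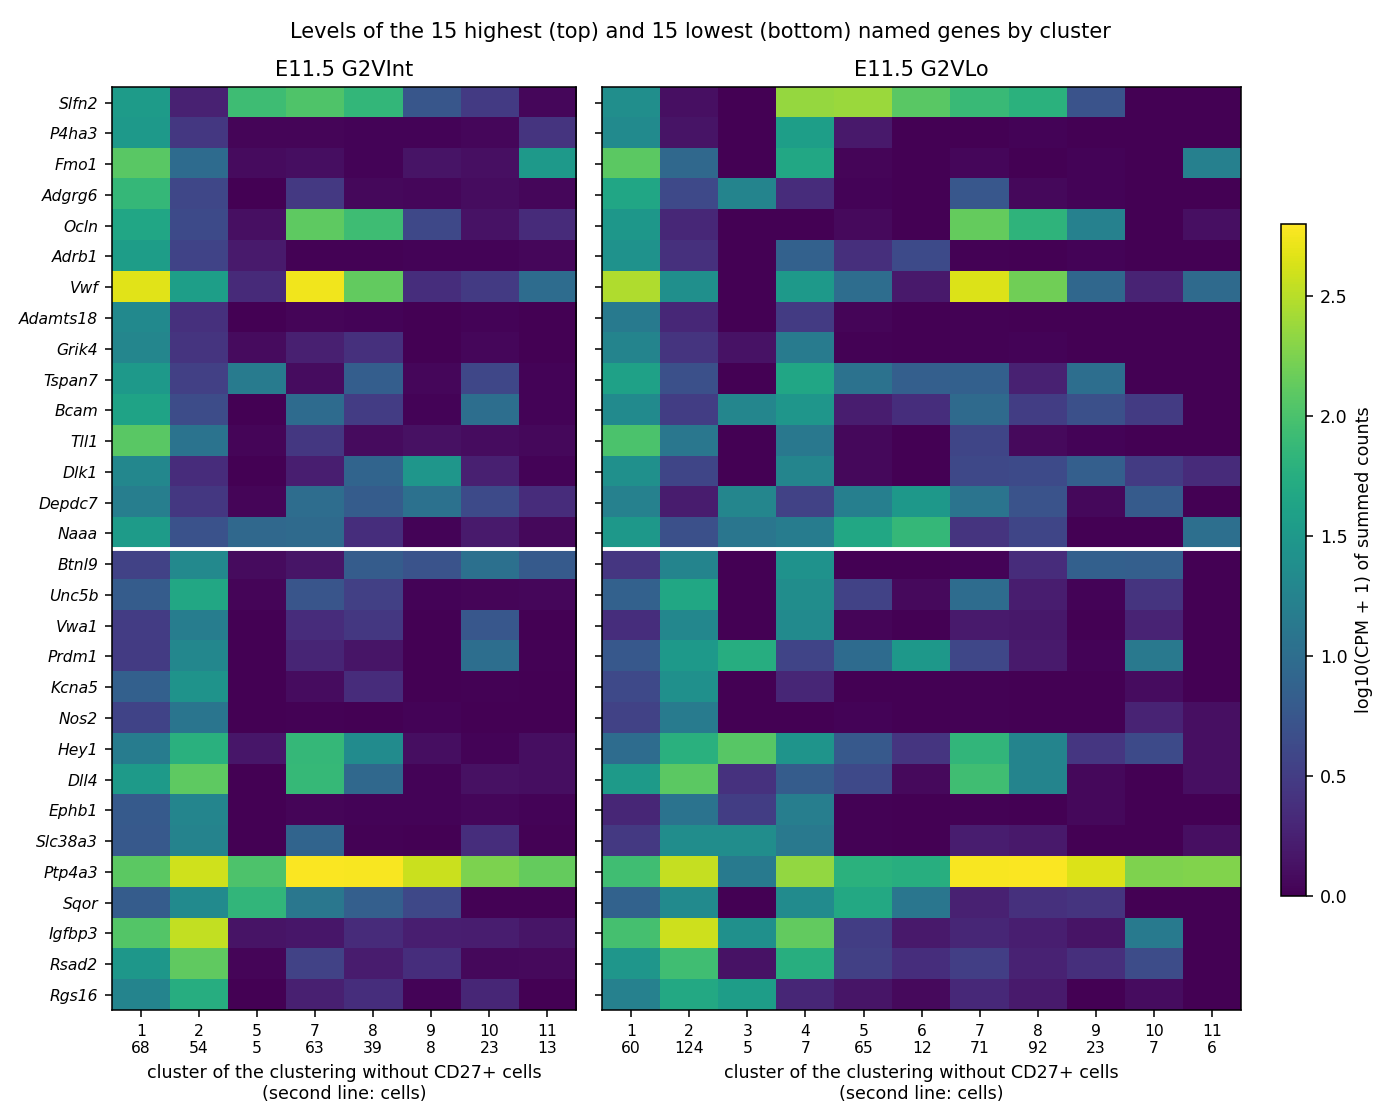
Level of the 15 highest (top) and 15 lowest (bottom) named genes as log10(CPM + 1) of summed counts (colour), by cluster of the clustering without CD27+ cells (x axis, with cell numbers), in G2VInt (left) and G2VLo (right). Tll1, Adgrg6 and Adamts18 are brightest in cluster 1 of both gates, whereas Vwf and Ocln are brighter in cluster 7.

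The 145 cells were not uniform. In the authors' other clustering, of all cells, 115 of them fell in cluster 1, 8 in cluster 2, 12 in cluster 4, 1 in cluster 9, 2 in cluster 10 and 7 in cluster 12. The comparisons between these subsets were chosen after their values were seen and rest on few cells. The marker Gata4, an early heart, liver sinusoid and gonad transcription factor gene (chr14:63198922-63271692), shows what they do to a summed level. It had 47.9 CPM in EC cluster 1 and 0.192 CPM in EC cluster 2 of G2VInt, and 27.0 and 0.242 CPM in G2VLo. After thinning it was read in 33.8% (22.8 to 46.3) of EC cluster 1 cells and 1.85% of EC cluster 2 cells of G2VInt, and in 16.7% (8.29 to 28.5) and 1.61% of G2VLo cells, so most cells of the cluster had no read. The 7 cells of cluster 12 hold 4.45% of all EC cluster 1 reads but 77.2% of its Gata4 reads. Without the cells of clusters 9, 10 and 12, the log2 ratio of Gata4 was 5.87 in G2VInt and 4.14 in G2VLo, against 7.97 and 6.80 with them.

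The cluster 12 cells, 3 from G2VInt and 4 from G2VLo, carried more sinusoidal genes than the EC cluster 1 cells of cluster 1. Gata4 had 730 CPM in cluster 12 and 9.39 CPM in cluster 1 cells of G2VInt, and 362 and 4.91 CPM in G2VLo; its range over the 7 cells was 142 to 876 CPM. Oit3, a gene of liver sinusoidal endothelium, had 1379 and 28.6 CPM in G2VInt, and 1291 and 22.4 CPM in G2VLo, and the 7 cells hold 72.8% of its EC cluster 1 reads. Lyve1, a hyaluronan receptor gene of sinusoidal and lymphatic endothelium, had 621 and 115 CPM in G2VInt, and 139 and 31.3 CPM in G2VLo. Gpr182, an atypical chemokine receptor gene, had 496 CPM in cluster 12 and 113 CPM in cluster 1 cells of G2VInt, and 296 and 44.8 CPM in G2VLo. The scavenger receptor Stab1 was close, at 771 and 804 CPM in G2VInt and 585 and 587 CPM in G2VLo. Of 11 sinusoidal genes measured, 8 were higher and 1 lower in G2VInt, beside 8.21% and 17.5% of all genes, and 6 were higher and 2 lower in G2VLo, beside 9.89% and 22.9%.

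The same 7 cells had little of several other genes that set EC cluster 1 apart from EC cluster 2. Adgrg6 had 0.254 CPM in cluster 12 and 84.4 CPM in cluster 1 cells of G2VInt, and 0.399 and 57.3 CPM in G2VLo. Tll1 had 5.60 and 147 CPM in G2VInt, and 0 and 126 CPM in G2VLo. Vwf had 16.3 and 564 CPM in G2VInt, and 6.38 and 365 CPM in G2VLo. Fmo1 was lower but present, at 30.9 CPM in cluster 12 and 151 CPM in cluster 1 cells of G2VInt, and 43.9 and 158 CPM in G2VLo. Clec14a was close, at 878 and 871 CPM in G2VInt and 973 and 826 CPM in G2VLo, and Edn1 had 205 and 217 CPM in G2VInt and 60.7 and 173 CPM in G2VLo.

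Several Hox genes were close to absent there. Hoxa9 had 0.127 CPM in cluster 12 and 104 CPM in cluster 1 cells of G2VInt, and 0 and 87.9 CPM in G2VLo. Hoxa10, Hoxa7 and Hoxd9 had 0 reads in all 7 cells, against 36.6, 48.7 and 15.5 CPM in cluster 1 cells of G2VInt and 38.6, 25.0 and 19.6 CPM in G2VLo. The more anterior Hoxa5 was present, at 52.3 and 65.3 CPM in G2VInt and 44.7 and 29.4 CPM in G2VLo. Of the Hox list 6 of 9 measured genes were lower and 1 higher in G2VInt, beside 17.5% and 8.21% of all genes. In G2VLo 6 of 8 were lower and 0 higher, beside 22.9% and 9.89% of all genes. Glycolysis genes were higher in 13 of 18 cases in each gate (medians 1.62 and 1.73, against -0.06 and -0.14 for all genes): the lactate dehydrogenase gene Ldha had 3502 CPM in cluster 12 and 673 CPM in cluster 1 cells of G2VInt and 3044 and 623 CPM in G2VLo, the hexokinase gene Hk2 62.7 and 3.38 CPM and 55.1 and 2.40 CPM, and the lactate exporter gene Slc16a3 261 and 31.7 CPM and 410 and 24.1 CPM.

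**Figure D5:**
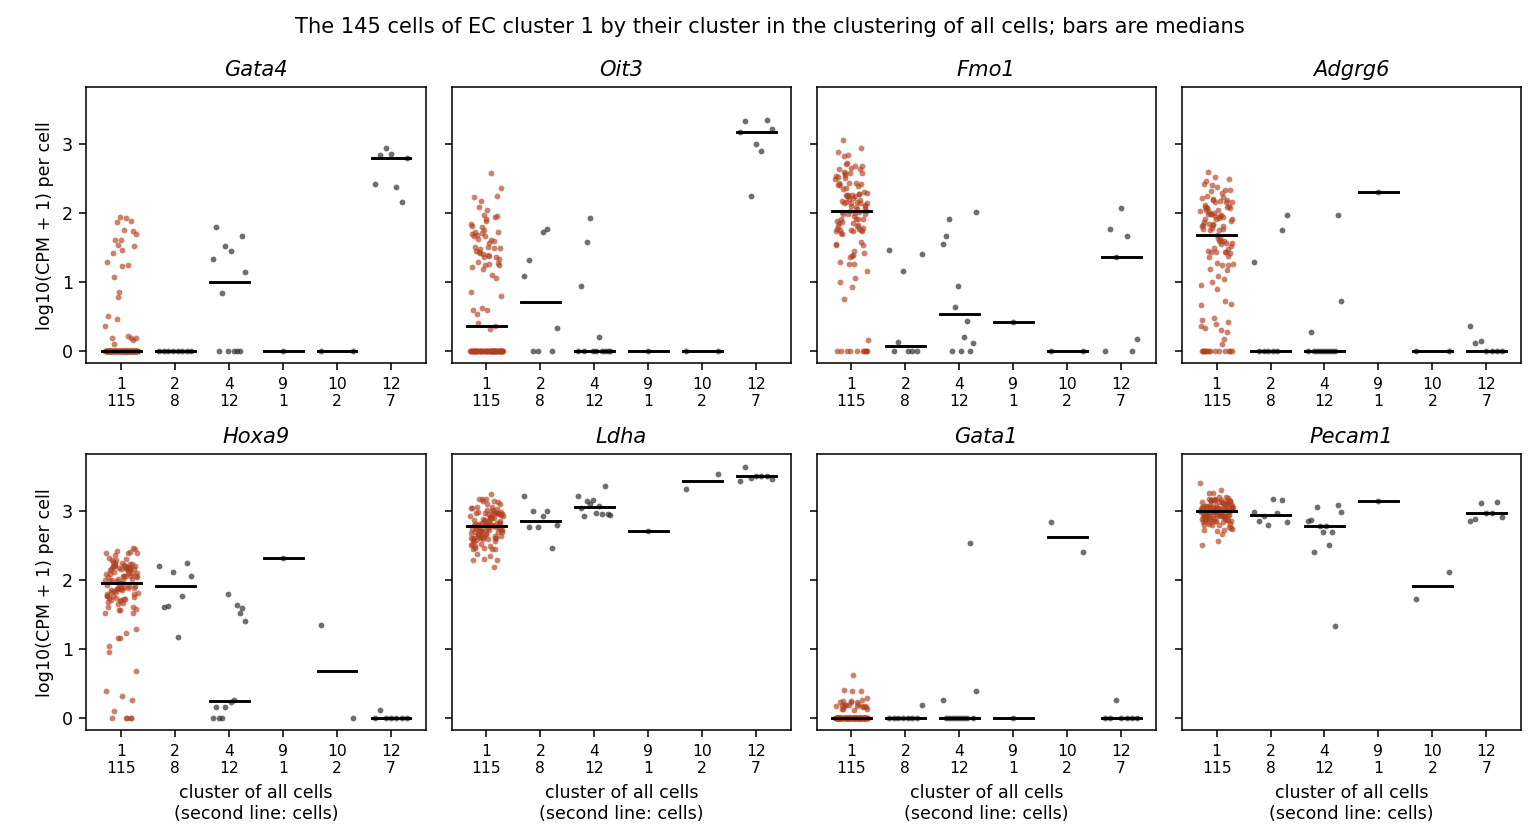
Each point is 1 of the 145 EC cluster 1 cells, with log10(CPM + 1) on the y axis and its cluster in the clustering of all cells on the x axis (cell numbers below); bars are medians. The 7 cluster 12 cells are high for Gata4, Oit3 and Ldha and at or near 0 for Adgrg6 and Hoxa9, and Gata1 is high in 3 cells of clusters 4 and 10 that are low for Pecam1.

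Of the 12 cells in cluster 4, 7 came from G2VInt, and these also had little of several Hox genes. Hoxa9 had 7.14 CPM in them and 104 CPM in cluster 1 cells, and Hoxa10 had 0 and 36.6 CPM. Of 8 measured Hox genes 7 were lower, beside 10% of all genes. S phase genes were higher in 8 of 25 cases, beside 5.12% of all genes. The 4 cluster 4 cells of G2VLo did not share this: 2 of 8 Hox genes were lower and 1 of 25 S phase genes higher, and 21 of 25 G2 and M phase genes were lower, against 4 higher and 0 lower in G2VInt. Over all genes, 10.8% were higher and 15.9% lower in these 4 cells, 1 of which is high for Gata1. In G2VInt, Fmo1 had 8.36 CPM in cluster 4 and 151 CPM in cluster 1 cells, and Gata4 25.6 and 9.39 CPM. In the single cluster 9 cell, a G2VInt cell, the arterial gap junction gene Gja5 had 2264 CPM, Hey1 412 CPM and Vwf 1407 CPM, while Aplnr had 1.98 CPM and Fmo1 1.59 CPM.

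Another 3 cells, all of G2VLo and all assigned to EC cluster 1, carried platelet-lineage genes and few endothelial ones; they are 2 cells of cluster 10 and 1 of cluster 4 with more than 100 CPM of Gata1, a limit set after the values were seen. Gata1, the erythroid and megakaryocyte GATA factor gene, had 247 to 674 CPM in them, and they hold 99.4% of its EC cluster 1 reads in G2VLo. Itga2b, the platelet integrin CD41, ranged from 377 to 1071 CPM in the 3 cells. Their summed Pecam1 level was 58.1 CPM, against 947 CPM in the other EC cluster 1 cells of the gate, and Cdh5, the endothelial cadherin gene, was at 2.53 against 278 CPM. With these cells 11 of 12 measured megakaryocyte genes were higher in EC cluster 1 of G2VLo than in EC cluster 2 (median log2 ratio 4.00). Of all genes measured in that gate 4.04% were higher. Without the 3 cells 2 of the 4 megakaryocyte genes still measured were higher (1.81). Itga2b remained higher without them, at a log2 ratio of 2.83, whereas the log2 ratio of Coro1a, a blood cell cytoskeleton gene, was 1.75 with them and -0.79 without. The 15 highest and 15 lowest genes kept their direction without these 3 cells and, in a separate repeat, without the cells of clusters 9, 10 and 12.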

How the data were processed

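Messenger RNA was sequenced in single cells with Nextera XT libraries on an Illumina HiSeq, per the labels. The authors deposited raw read counts per Ensembl gene, made with HTSeq 0.6.0 on GRCm38 per the submitters' processing notes; the aligner, annotation, strand setting and read filters are not given in the sources used here. No molecular identifiers are mentioned, so PCR copies count as reads and the intervals are too narrow. Without a strand setting, reads of overlapping and antisense genes cannot be told apart. GENCODE M21 gave symbols and coordinates of the same build to 45229 of 46078 genes; the other 849 held 0.0859% of the reads.

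Cluster and class came from the authors' labels, which do not spell out EC, and no doublet caller was run. Counts were summed over cells and divided by the total (CPM), with exact Poisson 95% intervals, a log2 ratio, and a floor of 3 counts per cell set where a set had 0. Shares of cells used cells thinned to 100000 reads, with Clopper-Pearson intervals. No design could be tested, since no label ties cells to embryos.

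The members and 48 gene lists (753 of 755 entries in the table) were chosen with earlier results of these data known. Named genes were the 7 markers, Gata2, Kit, Cd27 and Pecam1, the 15 highest and 15 lowest by the smaller absolute log2 ratio of the 2 E11.5 gates (at least 2-fold in both, at least 10 CPM in the higher cluster, read in at least 20% of its thinned cells; pseudogenes, Gm and Rik, mitochondrial, ribosomal and sex-linked genes passed over), and 2 to 4 members per list with the largest such ratio. Genes of the cluster 12, cluster 9 and Gata1 cells were chosen after their values were seen. The scripts were tested on simulated data. Python 3.11.15, numpy 2.4.6, pandas 2.3.3, scipy 1.17.1 and matplotlib 3.10.9 were used. Alternatives tried were TMM scaling, the mean of single cells, thinned counts, totals without mitochondrial genes, a lower CPM minimum, cells in the same cluster of both clusterings, the cells left without the deepest ones, the lower and the upper library numbers, and each sex.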

Additional observations from a re-analysis of the deposited data

Results flagged for a closer look

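Prkcq, which encodes protein kinase C theta, stood in opposite orders in the 2 gates of E11.5: its log2 ratio of EC cluster 1 to EC cluster 2 was -1.15 in G2VInt and 1.35 in G2VLo. This difference between the gates was not tested.

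The CD27+ cells were not part of the comparisons, since the clustering that defines EC cluster 1 left them out. In the 2 CD27+ cells that the clustering of all cells put in cluster 12, Gata4 had 520 CPM and Oit3 966 CPM, and each cell had both genes, at 425 and 616 CPM of Gata4 and at 758 and 1172 CPM of Oit3.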

How the results depend on the processing

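Calls depend most on the filter. With at least 1 CPM in place of 10, the genes at least 2-fold higher and lower in EC cluster 1 numbered 3362 and 2052 at E10 (1478 and 951 with the filter of 10), 2615 and 2380 at E11 (1214 and 983), 1301 and 621 in G2VInt of E11.5 (408 and 133), 1380 and 678 in G2VLo (389 and 142), and 572 and 169 in both gates (201 and 55). Thinned cells gave 1449 lower genes at E10. Several subsets of the cells gave more lower genes, for reasons that were not tested. Cells in the same cluster of both clusterings gave 275 in G2VInt, 249 in G2VLo and 124 in both, the lower library numbers gave 200 in G2VInt and 251 in G2VLo, and the upper ones 252 in G2VInt. Female cells gave 332 in G2VInt and 230 in G2VLo, and male cells 253 and 295, with 592 higher genes in G2VLo. The other 78 recomputed counts stayed within 1.5 times.

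Of the recomputed ratios of named genes, 2656 moved past their 95% counting interval and 2310 stayed within it. Another 12 that were at least 2-fold changed sign. Smaller ratios that changed sign are not among these 12, so the counts do not rank sizes against signs. Of list medians 76 moved past the quartiles of their members, 900 stayed within them, and 1 that was at least 2-fold changed sign. The log2 ratio of Oit3 was -0.15 in male G2VInt cells, and in G2VLo -0.30 in cells of the same cluster in both clusterings and -0.41 without clusters 9, 10 and 12. Coro1a in G2VLo was -0.87 in cells of the same cluster in both clusterings and -0.79 without the 3 Gata1 cells, where Arhgap45 was -0.37 in the first of these sets. Cdkn1a was -2.45 in the upper G2VInt library numbers, Nr4a2 -0.34 and Gja4 1.09 in female G2VInt cells, Col3a1 -0.10 in female and Dlk1 -1.93 in male G2VLo cells, and Cavin2 3.90 at E10 in cells of the same cluster in both clusterings. The median of the erythroid list was -0.10 in female G2VLo cells. The causes were not tested. Repeats without single cells or without clusters 9, 10 and 12 were chosen after seeing the data.

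No paired analysis was possible because the library numbers name single cells, are not shared between groups, and no result comes from a test. With 1 sample per day and gate, differences between embryos, sorts or library plates could not be measured, and E10 and E11 rest on 4 to 10 cells per cluster.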

Other observations

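The 2 clusterings disagreed at the border between the clusters. Of the 190 EC cluster 2 cells, 31 were in cluster 1 of the clustering of all cells and 154 in cluster 2. Summed over all days and gates, Clec14a had 304 CPM and Dll4 57.6 CPM in the 31, against 126 and 140 CPM in the 154. Fmo1 was low in both, at 10.5 and 8.06 CPM. The 154 include 38 cells of E11.5 G2VInt and 106 of G2VLo. The gates were not separated here, so library block mixes into these levels. Conversely 8 EC cluster 1 cells were in cluster 2 of all cells, and the 6 of them from G2VLo had 5.69 CPM of Fmo1 and 36.1 CPM of Tll1, against 158 and 126 CPM in the EC cluster 1 cells of cluster 1.

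Among the CD27+ cells, 2 were in cluster 1 of the clustering of all cells. They had 973 CPM of Vwf, 219 CPM of Procr and 71.4 CPM of Fmo1.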
